A study of Mus musculus with 10 samples.

Results

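The Sox genes described here are Sox2, Sox4, Sox5, Sox6, Sox8, Sox9, Sox11, Sox12 and Sox13, 9 of the 20 Sox genes (Sry included) that the mouse annotation lists, out of 46517 genes in the files. They were chosen as the named relatives of Sox10. The libraries came from mouse MPNST allografts, tumours of the nerve sheath that arise in Schwann lineage cells, in 5 models lettered A to E (MPNST is malignant peripheral nerve sheath tumour). Each model gave 1 RNA-seq library of GFP+ cells, which express a transgene that the labels call CGD, and 1 library of GFP- cells, which do not. In all 10 libraries wild-type and dead cells had been gated out by flow cytometry. The sources used here do not give the promoter or make-up of the transgene, the age, strain or sex of the animals, the alleles behind each model, or whether a model is 1 tumour or several pooled.

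Sox proteins are transcription factors that bind DNA through an HMG box, a domain that bends the double helix. They fall into groups by the likeness of that box, and members of 1 group often stand in for one another. The SoxE genes Sox8, Sox9 and Sox10 act in neural crest, where Sox9 acts in early crest cells and in cartilage and Sox10 carries the Schwann cell fate. The SoxD genes Sox5, Sox6 and Sox13 lack a transactivation domain and modulate SoxE proteins in cartilage, crest and glia. The SoxC genes Sox4, Sox11 and Sox12 act in progenitors and newly formed neurons, and Sox2, of the SoxB1 group, keeps neural progenitors and immature Schwann cells undifferentiated.

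A strongly conserved stretch of the HMG box, 27 coding bases, is shown because it is what the family shares; the sequences are from GENCODE vM21 transcripts (mm10) and read 5′ to 3′, with capitals at bases unlike those of Sox10.
Sox8: CggcccatgaaTgccttcatggtgtgg
Sox9: CgAcccatgaacgccttcatggtgtgg
Sox10: aggcccatgaacgccttcatggtgtgg
Sox4: CggcccatgaacgccttTatggtgtgg
Sox11: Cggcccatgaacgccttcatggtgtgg
Sox12: CggccGatgaacgcGttcatggtgtgg
Sox5: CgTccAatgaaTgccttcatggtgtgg
Sox6: CgAccAatgaaTgcGttcatggtTtgg
Sox13: agAcccatgaaTgccttcatggtgtgg
Sox2: aggcccatgaacgccttcatggtAtgg
Over the whole box of 237 bases, 2 genes of the same group were 81.4% to 89.0% identical (9 pairs, Sox10 included), and 2 genes of different groups 52.3% to 72.2% (36 pairs).

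The closest pair was Sox11 and Sox4, whose whole boxes are printed below with capitals at the 26 of 237 bases where they differ, since these sister genes had different patterns in the libraries.
Sox11: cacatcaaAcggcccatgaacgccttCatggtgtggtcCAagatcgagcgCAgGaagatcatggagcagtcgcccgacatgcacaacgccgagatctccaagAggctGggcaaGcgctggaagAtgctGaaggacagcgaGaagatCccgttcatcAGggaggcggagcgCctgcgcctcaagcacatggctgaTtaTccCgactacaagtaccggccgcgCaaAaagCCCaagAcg
Sox4: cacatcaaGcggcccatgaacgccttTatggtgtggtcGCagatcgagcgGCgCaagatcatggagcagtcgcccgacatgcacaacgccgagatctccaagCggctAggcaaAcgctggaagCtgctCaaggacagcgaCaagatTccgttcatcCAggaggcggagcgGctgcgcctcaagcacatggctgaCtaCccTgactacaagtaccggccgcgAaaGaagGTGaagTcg
Their longest identical run in the box was 48 bases. Of all stretches of 50 bases in the members' transcripts, 0 were found in another Sox gene. Of the 9 members only Sox5 shared any with another gene, in 22 of its 14537 stretches. All transcripts were read in their own direction only, so sequence shared with antisense genes was not searched.

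The members also differ in gene structure. Sox2, Sox4, Sox11 and Sox12 each lie in 1 merged exon, Sox8 and Sox9 in 3 exons, and Sox13, Sox5 and Sox6 in 14, 25 and 25 merged exons. On mm10, Sox4 (ENSMUSG00000076431) lies at chr13:28948919-28953713 on the minus strand and Sox11 (ENSMUSG00000063632) at chr12:27334264-27342574 on the minus strand. Sox9 (ENSMUSG00000000567) lies at chr11:112782224-112787760 on the plus strand, Sox6 (ENSMUSG00000051910) at chr7:115470872-116038796 and Sox13 (ENSMUSG00000070643) at chr1:133382303-133424377, both on the minus strand. Sox5 (ENSMUSG00000041540) lies at chr6:143828425-144781977, Sox8 (ENSMUSG00000024176) at chr17:25565892-25570686 and Sox12 (ENSMUSG00000051817) at chr2:152393611-152398063, all on the minus strand. Sox2 (ENSMUSG00000074637), at chr3:34650405-34652461 on the plus strand, lies inside the long non-coding gene Sox2ot on the same strand, but shares no exon with it. The exons of Sox4, Sox5 and Sox8 overlap antisense genes, which the stranded counts used here keep apart.

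The libraries held 15978673 to 22082207 reads in genes, so that a count of 0 allows up to 3 reads, or 0.136 to 0.188 CPM (counts scaled to the total reads in genes of each library), covering counting error only. Schwann lineage markers summed to 60.5 to 365 CPM in GFP+ cells, against 64.1 to 173 CPM in GFP- cells (9 of 9 with a read in each population), with S100b at 2.93 CPM or less. Endothelial markers summed to 3.81 to 13.8 CPM in GFP+ cells, against 3.74 to 12.9 CPM in GFP- cells (8 of 8 with a read in each), and Pecam1 stayed at or under 1.31 CPM. Macrophage and leukocyte markers summed to 17.5 to 54.4 CPM in GFP+ cells (8 of 10 with a read) and 11.6 to 58.7 CPM in GFP- cells (10 of 10), and Ptprc stayed at or under 0.453 CPM. Skeletal muscle markers summed to 0.272 to 0.877 CPM in GFP+ cells (3 of 5 with a read) and 0.542 to 9.45 CPM in GFP- cells (5 of 5), highest in GFP- cells of model D. Melanocyte markers summed to 13.3 to 24.3 CPM in GFP+ cells, against 17.5 to 42.9 CPM in GFP- cells (3 of 5 with a read in each), most of it Mitf, with Tyr at 0 in all libraries. Sex-linked genes also differed between models. Model A had 41.7 (GFP+) and 60.7 (GFP-) CPM of the Y-linked Ddx3y. Its Xist, the RNA of the inactive X chromosome, stayed at or under 0.111 CPM. Models B, C and E had Xist at 523 to 1049 CPM and Ddx3y at or under 1.35 CPM. That top Ddx3y value was in GFP+ cells of model E, whose GFP- cells had 0.109 CPM. In model D, Xist was 103 CPM in GFP+ cells, against 2.82 CPM in GFP- cells. Ddx3y there was 42.2 CPM in GFP+ cells, against 64.2 CPM in GFP- cells. These patterns go with the model, so the test between models does not separate them. The part of these markers in the results was not tested. Without model D, the log2 differences of GFP+ minus GFP- cells were -0.16 for Sox4, 0.35 for Sox5, 0.10 for Sox2 and -0.04 for Sox12, and those of the other tested members stand beside their results. In bulk libraries, fewer cells of a type and less RNA per cell cannot be told apart.

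Between genes, levels were compared per exon length, as RPKM (reads per kilobase of merged exon, scaled like CPM). Sox4 was highest in 10 of 10 libraries, at 82.3 ± 16 RPKM (SD, n = 10 libraries in 5 pairs). Sox2 followed at 23.1 ± 4.53, Sox9 at 20.5 ± 6.64 and Sox12 at 12.1 ± 3.29 RPKM. Sox4 lay above every value of Sox2, whereas Sox2, Sox9 and Sox12 each overlapped the next. Sox11 stood at 3.36 ± 2.51, Sox13 at 1.07 ± 0.930 and Sox5 at 0.504 ± 0.230 RPKM, and the range of each overlapped the next. Sox8 (0.188 ± 0.286 RPKM) and Sox6 (0.110 ± 0.153 RPKM) were lowest and their ranges overlapped. Their order depends on the exon length used, since as CPM the mean was 0.586 for Sox8 and 1.64 for Sox6. Of the Sox genes outside the list and other than Sox10, Sox21, a SoxB2 gene, was present at 1.88 to 17.1 CPM and Sox7, a SoxF gene, at 0.0453 to 1.76 CPM. Sox7 was higher in GFP+ cells in 5 of 5 pairs (log2 1.26, SE 0.42, adjusted p = 0.461 by edgeR's quasi-likelihood test) and Sox21 in 3 of 5 (-0.02, SE 0.36). The endothelial SoxF genes Sox17 and Sox18 had at most 0.0626 and 0.188 CPM, and Sox1, Sox3, Sox14, Sox15, Sox30 and Sry had between 0 and 1.82 CPM.

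**Figure D1:**
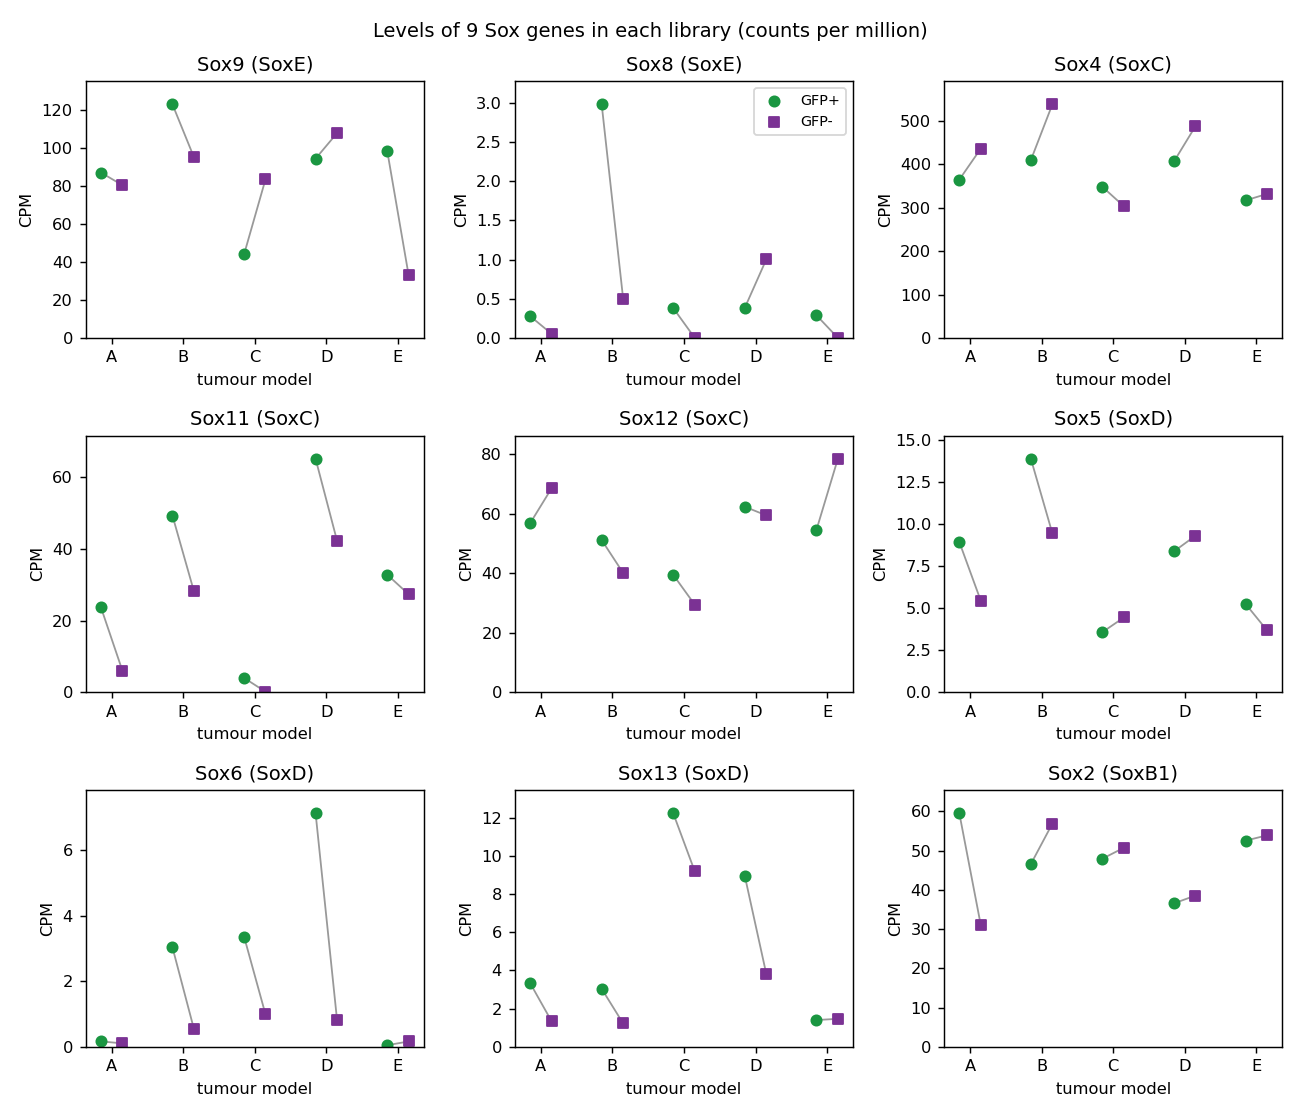
Level of each of the 9 Sox genes in every library, in CPM on linear axes from 0, by tumour model; green circles are GFP+ libraries, purple squares GFP- libraries, and a line joins the pair of a model. GFP+ lies above GFP- in 5 of 5 models for Sox11, whereas Sox9 runs one way in model E (98.9 against 33.1 CPM) and the other way in model C (44.0 against 83.7 CPM).

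Setting GFP+ beside GFP- cells asks what sets cells with the transgene apart from cells of their own tumour model without it. No member passed edgeR's quasi-likelihood test with the model as a block at a Benjamini-Hochberg adjusted p under 0.05: 0 of the 8 tested members, against a background of 0 of 13986 genes (0%). Sox8 was too low to be tested. At an unadjusted p under 0.05 there were 3 of 8 members, Sox6, Sox13 and Sox11, all with higher values in GFP+ cells, where 8.99% of all tested genes had such a p and 5.50% had it with a higher value in GFP+ cells. The members were chosen with earlier results of these data known, so this share is a description. The 3 kept such a p without any 1 model, except Sox11 without model A (unadjusted p = 0.0817 by edgeR's quasi-likelihood test). Without model B or model D the number of all genes with such a p was 793 or 796, against 1257 with all models. With DESeq2, which called 1.36% of genes, 0 members passed, and the smallest adjusted p was 0.197 for Sox6; limma voom called 0 genes. The median log2 difference was 0.19 over the 8 members and -0.0028 over all tested genes. GFP+ and GFP- libraries overlapped for all 9 members, whereas they did not overlap for 0.172% of tested genes.

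Among the SoxE genes, Sox9 was abundant in both populations and its direction was not the same in all models. GFP+ cells of models A to E had 87.2, 123, 44.0, 94.6 and 98.9 CPM of Sox9, and GFP- cells 80.6, 95.3, 83.7, 108 and 33.1 CPM. GFP+ cells of model C and GFP- cells of model E were the low libraries, and the populations overlapped throughout. Sox9 averaged 89.6 ± 28.8 CPM in GFP+ cells, against 80.2 ± 28.5 CPM in GFP- cells (n = 5 each, SD). The log2 difference was 0.14 (SE 0.32, adjusted p = 0.938 by edgeR's quasi-likelihood test). The GFP+ over GFP- ratio was 2.99 in model E, with a counting interval of 2.73 to 3.28 (95%, exact, conditional on the reads), and 0.526 in model C, with an interval of 0.482 to 0.573. Both lie beyond counting error, but a single pair per model gives no replicate of a model's difference. Without model E the log2 difference was -0.21, without model C 0.42 and without model D 0.25.

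Sox8 was near the floor of detection. It had 5, 56, 7, 7 and 6 reads in GFP+ cells of models A to E and 1, 11, 0, 16 and 0 reads in GFP- cells. GFP+ libraries held more reads in models A, B, C and E and fewer in model D, and only GFP+ cells of model B reached 2.98 CPM. There the ratio was 5.99 (counting interval 3.10 to 12.7). In models C and E, with 0 reads in GFP- cells, it was at least 2.30-fold and 1.78-fold higher in GFP+ cells against a floor of 3 reads per library. The exact counting interval of the ratio, which covers the reads of both libraries, started at 1.42 in model C and 1.05 in model E. In model A the ratio of 5.41 had a counting interval of 0.605 to 256. With no filter on low counts the log2 difference was 1.57 (SE 0.74, adjusted p = 0.759 by edgeR's quasi-likelihood test).

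Sox10, the other SoxE gene, averaged 36.5 ± 47.4 CPM in GFP+ cells, against 2.60 ± 3.20 CPM in GFP- cells (n = 5 each, SD). Its log2 difference was 3.61 (SE 0.40, adjusted p = 0.183 by edgeR's quasi-likelihood test). Whether it passed depended on the method. DESeq2 called it (adjusted p = 1.4e-14), and so did edgeR's quasi-likelihood test with no filter on low counts (adjusted p = 0.0020). Per length, Sox10 exceeded Sox9 in 2 of 10 libraries, GFP+ cells of model C (17.2 against 10.6 RPKM) and of model D (36.8 against 22.9 RPKM). In models A and E, Sox10 reached at most 0.142 RPKM, against 8.0 to 23.9 RPKM for Sox9. The sum of the 3 SoxE genes was 33.9 ± 15.5 RPKM in GFP+ cells, against 20.3 ± 7.48 RPKM in GFP- cells (n = 5 each, SD). It was higher in GFP+ cells in 5 of 5 pairs, a pattern that 5.11% of single tested genes had, and was not tested. In models C and D, Sox10 was higher in GFP+ cells and Sox9 lower, so the 2 genes ran against each other within the sum. Sox9 was higher in GFP+ cells of models A and E, where Sox10 was near 0, and both genes were higher in GFP+ cells of model B.

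**Figure D2:**
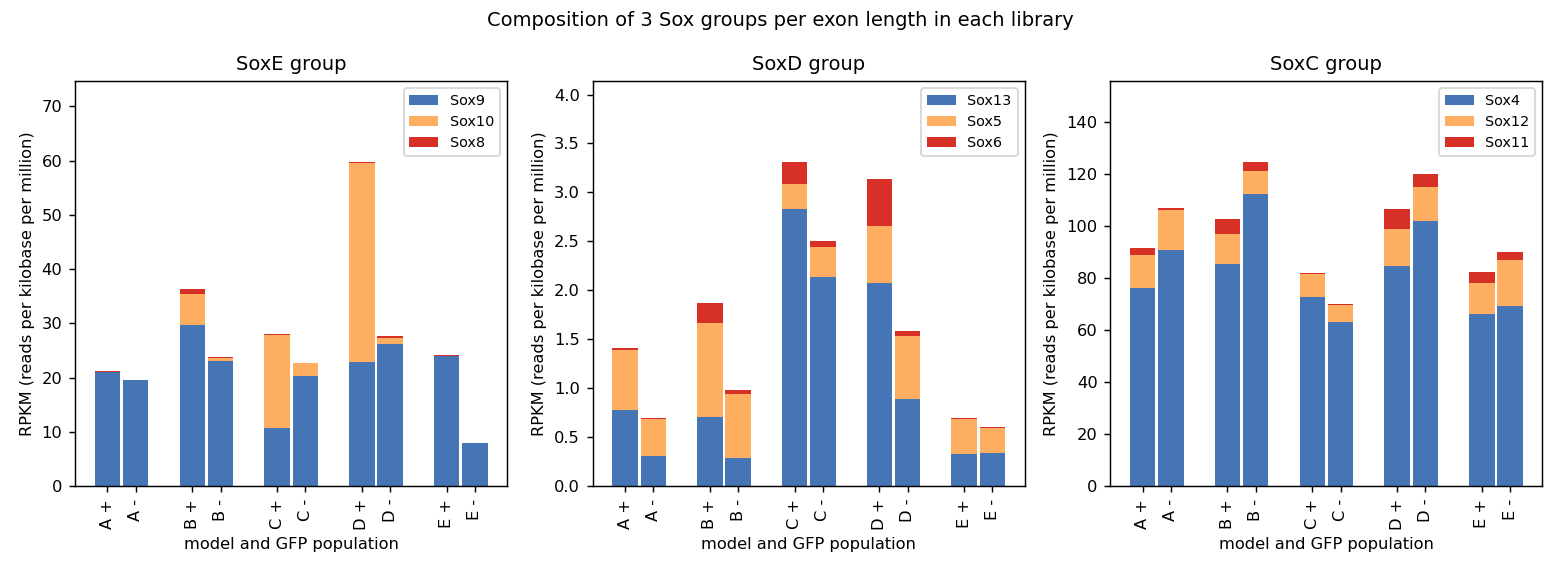
Stacked levels of the SoxE, SoxD and SoxC genes per exon length (RPKM, linear axes from 0) in each library, with the GFP+ library (+) left of the GFP- library (-) of each model A to E. In GFP+ cells Sox10 exceeds Sox9 in models C and D, Sox9 makes up nearly the whole SoxE sum in models A and E, and Sox4 makes up most of the SoxC sum in every library.

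The 3 SoxD genes all had fitted values above 0. Their sum per length was 2.08 ± 1.12 RPKM in GFP+ cells, against 1.28 ± 0.789 RPKM in GFP- cells (n = 5 each, SD). It was higher in GFP+ cells in 5 of 5 pairs, a pattern that 5.11% of single tested genes had, and was not tested. The pair of model E lay close, at 0.694 RPKM in GFP+ cells, against 0.607 RPKM in GFP- cells. Sox6, which works with Sox5 and Sox9 in cartilage, had the widest log2 difference of the tested members. It had 3, 57, 62, 130 and 1 reads in GFP+ cells of models A to E and 2, 12, 18, 13 and 3 reads in GFP- cells. As CPM these were 0.167, 3.04, 3.37, 7.13 and 0.0483 in GFP+ cells and 0.103, 0.543, 0.991, 0.814 and 0.163 in GFP- cells. Models B, C and D carried Sox6 in both populations, with more in GFP+ cells, while models A and E were at or under 3 reads in both and give no fold. Sox10 was likewise at or under 9 reads in both libraries of models A and E. The ratio was 5.59 in model B (counting interval 2.96 to 11.4), 3.40 in C (1.99 to 6.11) and 8.76 in D (4.95 to 16.9). The fitted log2 difference was 2.0 (SE 0.50, unadjusted p = 0.00435, adjusted p = 0.371 by edgeR's quasi-likelihood test), and 1.56 without model D.

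Sox13, known from the neural tube and from γδ T cells, had 3.33, 3.04, 12.2, 8.94 and 1.4 CPM in GFP+ cells of models A to E and 1.34, 1.22, 9.19, 3.82 and 1.46 CPM in GFP- cells. GFP+ libraries were higher in models A to D and the model E libraries lay together. Model C was high in both populations. The populations overlapped, with GFP+ cells of models A, B and E all below GFP- cells of model D. The ratio was 1.33 in model C and 0.956 in model E, and between 2.34 and 2.5 in the other models. The log2 difference was 0.81 (SE 0.24, unadjusted p = 0.0115, adjusted p = 0.421 by edgeR's quasi-likelihood test), and 0.71 without model D and 0.98 without model E.

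Sox5 had 8.95, 13.9, 3.58, 8.39 and 5.26 CPM in GFP+ cells of models A to E and 5.45, 9.46, 4.46, 9.32 and 3.69 CPM in GFP- cells. It was higher in GFP+ cells of models A, B and E and lower in C and D, where the intervals of the ratio included 1. The log2 difference was 0.24 (SE 0.20, adjusted p = 0.764 by edgeR's quasi-likelihood test), and 0.12 without model A, 0.37 without model C and 0.15 without model E. Per length Sox5 exceeded Sox6 in 10 of 10 libraries, and Sox13 exceeded Sox5 in 6 of 10.

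Of the SoxC genes, Sox11 had a fitted value above 0 and Sox4 and Sox12 had values below 0. A difference between these genes was not tested. Sox11, a factor of progenitors and immature neurons, had 23.7, 49.3, 4.02, 65.1 and 32.8 CPM in GFP+ cells of models A to E and 6.07, 28.2, 0.165, 42.2 and 27.3 CPM in GFP- cells. GFP+ cells were higher in 5 of 5 pairs, a pattern that 5.11% of tested genes had, and model C was low in both populations. The ratio was 3.91 in model A (counting interval 3.18 to 4.84) and 1.20 in model E (1.07 to 1.35). In model C, 74 reads stood against 3, a ratio of 24.3 with a counting interval of 8.01 to 121. The log2 difference was 1.12 (SE 0.40, unadjusted p = 0.0242, adjusted p = 0.478 by edgeR's quasi-likelihood test), and 0.85 without model C, 0.88 without model A and 1.32 without model D.

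Sox4, a progenitor factor that many tumours express, had 365, 410, 348, 407 and 317 CPM in GFP+ cells of models A to E and 437, 539, 303, 488 and 332 CPM in GFP- cells. GFP+ cells were lower in 4 of 5 pairs and higher in model C. The ratios ran from 0.762 in model B to 1.15 in model C, and the log2 difference was -0.19 (SE 0.11, adjusted p = 0.652 by edgeR's quasi-likelihood test), and -0.12 without model B and -0.28 without model C. Sox12, the weakest activator of the group, had 56.7, 51.1, 39.4, 62.3 and 54.4 CPM in GFP+ cells and 68.5, 40.1, 29.4, 59.4 and 78.4 CPM in GFP- cells. It was higher in GFP+ cells of models B, C and D and lower in A and E, with a log2 difference of -0.03 (SE 0.14, adjusted p = 0.980 by edgeR's quasi-likelihood test), whose sign changed without model A, without model E and with library totals in place of TMM scaling. The SoxC sum per length, most of it Sox4, was 93.1 ± 11.5 RPKM in GFP+ cells, against 102 ± 22.6 RPKM in GFP- cells (n = 5 each, SD), and was higher in GFP+ cells in 1 of 5 pairs.

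Sox2 had 59.5, 46.6, 48.0, 36.6 and 52.6 CPM in GFP+ cells of models A to E and 31.0, 56.9, 50.7, 38.6 and 53.9 CPM in GFP- cells. Only in model A was it higher in GFP+ cells, at a ratio of 1.92 (counting interval 1.74 to 2.13); in models C, D and E the interval of the ratio included 1. The log2 difference was 0.06 (SE 0.17, adjusted p = 0.959 by edgeR's quasi-likelihood test), and -0.16 without model A. Sox2ot, the surrounding non-coding gene, had 4.39, 2.82, 7.66, 2.47 and 2.65 CPM in GFP+ cells and 1.23, 4.53, 5.72, 3.50 and 3.80 CPM in GFP- cells. Its ratio in model A was 3.56 (counting interval 2.23 to 5.88), so both genes of the locus were higher in GFP+ cells of that model, and both were lower in model B.

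**Figure D3:**
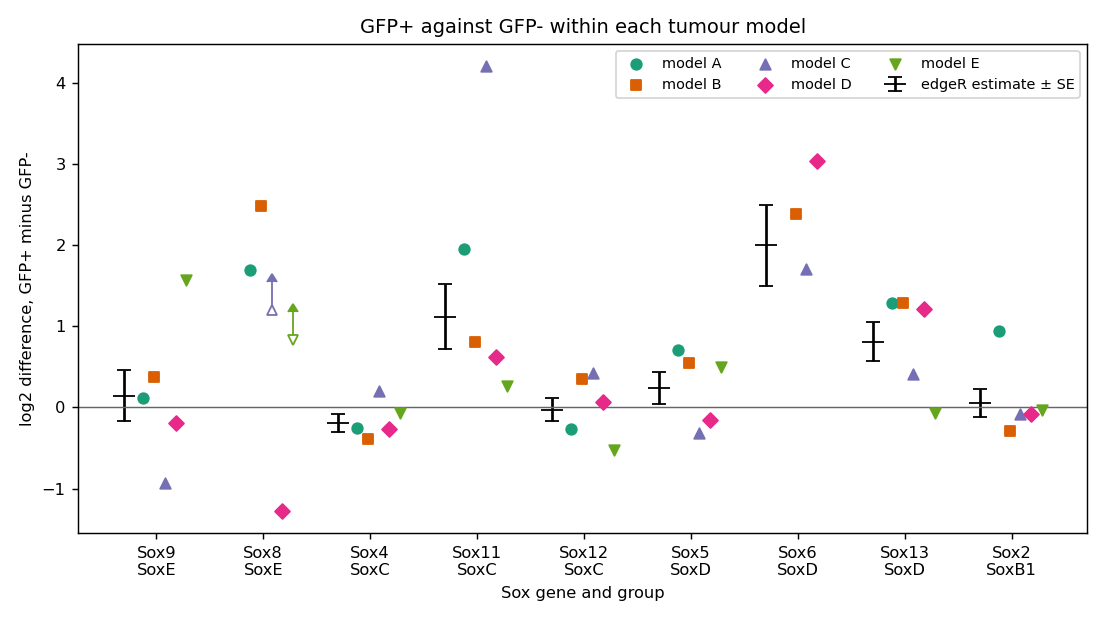
Log2 difference of GFP+ minus GFP- cells for each Sox gene in each model (coloured symbols, from CPM with 1 read added to each library) and the edgeR estimate with its standard error (black). Hollow symbols with an arrow are lower bounds against 0 reads; pairs at or under 3 reads in both libraries are not drawn. All 5 symbols lie above 0 for Sox11, from 0.26 in model E to 4.21 in model C, and 3 of 3 for Sox6.

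Levels also differed between models. The test of a difference between the 5 models, with the GFP population as a term, called 5 of 8 tested members, Sox5, Sox6, Sox11, Sox12 and Sox13, at an adjusted p under 0.05 by edgeR's quasi-likelihood test. The background was 54.7% of all tested genes (7655), so the share of members is near it. Without model C it called 4038 genes, and 3 of the members. The 2 libraries of a model share their source, so this test sets models against the spread of pair differences, and a model and its tumour cannot be told apart. Sox13 had the smallest adjusted p of the members (0.00307), then Sox11 (0.00777), Sox6 (0.00885), Sox5 (0.0194) and Sox12 (0.0350). Sox4 (0.0932), Sox2 (0.421) and Sox9 (0.505) did not pass, although Sox4 passed with DESeq2 (adjusted p = 0.0260), which called 60.0% of genes. Sox12 did not pass without model C (adjusted p = 0.192), Sox5 did not pass without model B (0.0621) or model C (0.0506), and Sox2 passed without model A (0.0446).

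The highest model mean was 37.6 times the lowest for Sox6, whose lowest models had 3 reads or fewer per library, and 25.7 times for Sox11, whose lowest library had 3 reads. For Sox11, means of the GFP+ and GFP- library were 53.7 CPM in model D, 38.7 CPM in model B, 30.1 CPM in model E, 14.9 CPM in model A and 2.09 CPM in model C. The neighbours D and B, and B and E, overlapped, and A and C lay apart from the rest and from each other. Sox6 ran from 3.97 CPM in D, 2.18 in C and 1.79 in B, which overlapped, to 0.135 in A and 0.105 in E. Sox13 was highest in C (10.7 CPM), then D (6.38), with A, B and E between 1.43 and 2.34 CPM. C and D did not overlap, nor did D and A. Sox5 was highest in B (11.7 CPM), then D (8.86), A (7.20), E (4.47) and C (4.02), and D overlapped A and E overlapped C. Sox12 ran from 66.4 CPM in E to 34.4 CPM in C, with E, A and D overlapping and B and C each apart. Sox9 ran from 109 CPM in B and 101 CPM in D, which overlapped, to 83.9 in A, 66 in E and 63.8 in C, which overlapped in turn. Sox8, not tested, ran from 1.74 CPM in B and 0.693 CPM in D to between 0.145 and 0.190 CPM in C, A and E. Model C held the lowest mean of Sox5, Sox9, Sox11 and Sox12 and the highest of Sox13. Sox4 was 474, 448 and 401 CPM in B, D and A, which overlapped, and 326 and 325 CPM in C and E, below them. Sox2 ran from 53.2 CPM in E to 37.6 CPM in D, with every neighbour overlapping. Sox2 and Sox4 stayed within a narrow band, with the highest model mean 1.42 and 1.46 times the lowest.

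**Figure D4:**
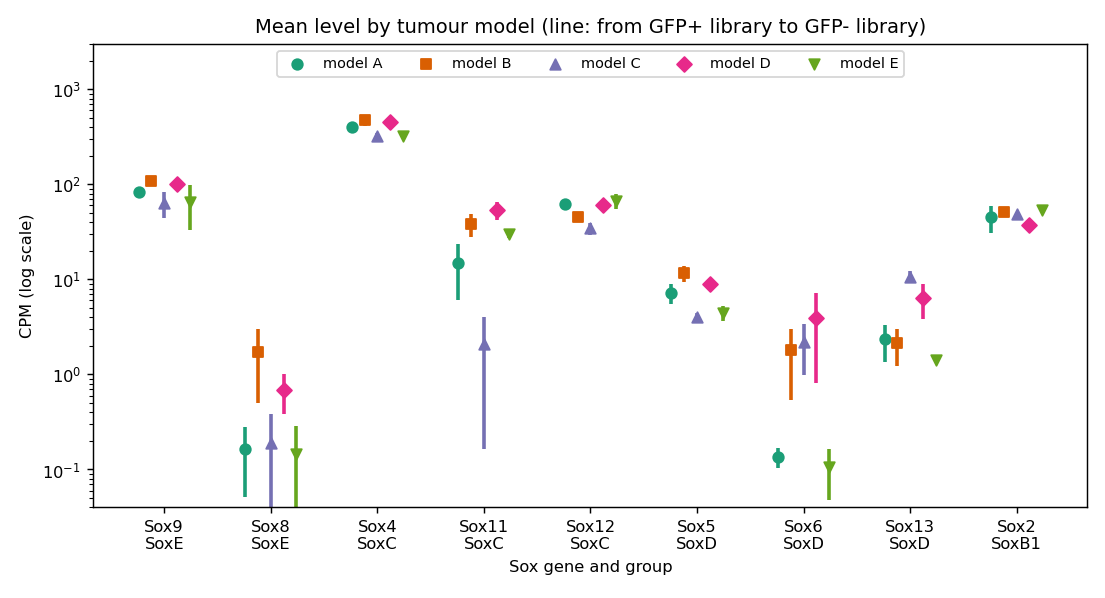
Mean level of each Sox gene in each tumour model (symbols, CPM on a log axis), with a line spanning the GFP+ and GFP- libraries of the model; lines that reach the bottom edge end at 0 reads. Sox2 and Sox4 vary least between models, and Sox11 is lowest in model C at 2.09 CPM.

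The genes whose pattern over the 10 libraries lay closest to each member were found by the root mean square difference of centred log2 CPM profiles, among 10913 genes of at least 5 CPM. The libraries are 5 pairs, so this is a description. Sox6, which spread by 1.81 log2 units around its own mean, lay closest to L1cam, a neural adhesion gene (0.68), and Aatk (0.77). Sox13 lay closest to Tnc, the matrix protein tenascin C (0.44), and Amigo2 (0.47), against its own spread of 1.16. Sox11 lay closest to Avil (0.98) and Prss35 (1.00), against its own spread of 2.27. Sox9 lay closest to Tubb2a (0.30) and Smyd4 (0.34), against 0.56. Sox5 lay closest to Gramd4 (0.16) and Rai14 (0.17), against 0.61. Sox4 lay closest to Lamp2 (0.076) and Plscr3 (0.090), against 0.26. For Sox12 these were Zfp462 (0.157) and Rfc1 (0.159), against 0.40, and for Sox2 Epg5 (0.168) and Zfp324 (0.172), against 0.30. The own spreads of Sox4, Sox12 and Sox2 were the smallest of the tested members, so a small distance there says less by itself.

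Lists of genes known to work with these factors were followed in the same GFP fit, in which 0 members of any list passed over all genes. The lists were chosen with earlier results of these data known, so their counts are descriptions and not tests. Of 18 cartilage genes under Sox9, Sox5 and Sox6, 12 were tested, 5 with a fitted value above 0 and 7 below, and a median log2 difference of -0.05. At an unadjusted p under 0.05 there were 2, both higher in GFP+ cells, Chadl (1.21, SE 0.44) and Col9a3 (1.31, SE 0.53), where 5.50% of all tested genes had such a p and a higher value. Acan, the proteoglycan aggrecan, had 8.39, 6.28, 136, 10.1 and 52.0 CPM in GFP+ cells of models A to E and 1.49, 0.136, 66.3, 10.6 and 53.9 CPM in GFP- cells. Model C was high in both populations and the populations overlapped. Chondrocyte markers as a list summed to 8.61 to 137 CPM in GFP+ cells, against 1.09 to 66.5 CPM in GFP- cells (4 of 5 with a read in each), with Matn1 at 0 in every library. Acan made up most of that sum in models A, C and E. In model B, Col2a1, the main cartilage collagen, named after its values were seen, had 17.6 CPM in GFP+ cells, against 0.589 CPM in GFP- cells. In model D it had 13.0 CPM in GFP+ cells, against 7.82 CPM in GFP- cells. It stayed at or under 0.411 CPM in models A, C and E. Acan, Col9a1 and Cnmd of the same markers were also higher in GFP+ cells of model B. In model D, Acan lay close in the 2 populations (10.1 CPM in GFP+ cells, against 10.6 CPM in GFP- cells). Col9a1 (0.165 against 0.563 CPM) and Cnmd (0 against 0.501 CPM) were lower in GFP+ cells of that model, at levels near the floor. The part of chondrocyte markers in the values of Sox9, Sox5 and Sox6 was not tested. Comp, a cartilage matrix protein, differed by -1.19 (SE 0.66).

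Of 14 neuronal and cytoskeletal genes under the SoxC group, 9 were tested (median log2 difference 0.17), 2 with an unadjusted p under 0.05 and higher values in GFP+ cells and 1 lower. Over all 13986 tested genes there were 769 higher and 488 lower at that p. Stmn1, a microtubule regulator, averaged 19.4 ± 7.16 CPM in GFP+ cells, against 12.3 ± 3.64 CPM in GFP- cells (n = 5 each, SD; log2 0.60, SE 0.17, adjusted p = 0.393 by edgeR's quasi-likelihood test) and was higher in 5 of 5 pairs. Its neuronal relative Stmn2 differed by 1.04 (SE 0.41), and Hes6, a neurogenic bHLH factor, by 0.25 (SE 0.11). Marcks, an actin-binding kinase substrate, averaged 232 ± 49.6 CPM in GFP+ cells, against 323 ± 123 CPM in GFP- cells (log2 -0.45, SE 0.14, adjusted p = 0.438 by edgeR's quasi-likelihood test), and was higher in GFP+ cells in 0 of 5 pairs.

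Of 18 progenitor and immature Schwann genes around Sox2, 16 were tested, with a median log2 difference of 0.37 against -0.0028 over all tested genes, and 15 had a fitted value above 0. Over all tested genes, 6898 of 13986 had a fitted value above 0. At an unadjusted p under 0.05 there were 6, all with higher values in GFP+ cells, against 5.50% of all tested genes. This list was chosen with earlier results of these data known, so these shares describe it and do not test it. Nes, the intermediate filament nestin, averaged 95.8 ± 77.8 CPM in GFP+ cells, against 43.9 ± 36.4 CPM in GFP- cells, with 4 of 5 pairs higher (log2 1.20, SE 0.29). Pou3f1, a POU factor of promyelinating Schwann cells, averaged 2.99 ± 2.62 CPM in GFP+ cells, against 0.575 ± 0.266 CPM in GFP- cells (n = 5 each, SD; log2 1.95, SE 0.56) and was higher in 5 of 5 pairs. The adhesion gene L1cam averaged 16.3 ± 23.2 CPM in GFP+ cells, against 2.02 ± 1.83 CPM in GFP- cells, with 3 of 5 pairs higher, and the growth cone gene Gap43 averaged 84.9 ± 23.8 CPM in GFP+ cells, against 52.0 ± 34.6 CPM in GFP- cells, with 5 of 5 pairs higher. Sox2 itself was higher in GFP+ cells in 1 of 5 pairs. Of 21 cofactors and regulators of Sox proteins, 17 were tested (median 0.02). Pou3f1, already counted in the list around Sox2, was the 1 gene with an unadjusted p under 0.05. The acetyltransferase gene Crebbp (-0.24, SE 0.13) and the ubiquitin ligase gene Wwp2, which binds Sox9 (-0.13, SE 0.09), were next, before the Notch target Hey1 (0.81, SE 0.57).

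The Sox motif core ACAAT was searched on both strands, the other strand being read as ATTGT, in the 250 bases before the annotated start (RefSeq, GRCm38.p6), where 13 starts of 8 members were listed. It was found before 4 of these 13 starts (30.8%), 1 of Sox5 and 3 of the 6 of Sox6, against 27.7% of all 32851 starts. Sox9 was the member with no start listed, so it was not searched, and the share of the members rests largely on Sox6.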

How the data were processed

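The authors' deposited files hold raw read counts per gene, 1 file per library, for 46517 genes in each. Per the submitters' processing notes, STAR 2.4.2.8 and build mm10 were used; the sources used here do not give their annotation, library kit, strand setting or read length. Counts of the strand that held most reads were used: it took 96.9% to 97.1% of stranded gene reads. Summary lines (21.3% to 24.3% of all reads, with multiply mapped reads at 5.99% to 9.74% of all) stayed out of library sizes and tests. Symbols, coordinates and exon lengths came from GENCODE vM21, and 46005 identifiers matched.

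CPM used library totals in genes. The main test followed the design text, which states a paired comparison: edgeR 4.0.16 (R 4.3.3) quasi-likelihood, TMM scaling, filterByExpr (13986 genes), with model as block, for GFP+ minus GFP-, two-sided, with Benjamini-Hochberg adjustment over all tested genes at 0.05. The models were compared in the same fit by a joint test of the model coefficients. Standard errors came from the F statistic. Pairing comes from the model letter in the labels; within a pair, deviations from the mean of each population correlated at 0.628 to 0.867. Nothing says that the models stand for separate animals, so p-values measure the spread between these samples only. The pipeline was also run on simulated counts. Changes were placed there only in tested genes above a minimum level, so this did not cover Sox8. Log2 CPM profiles used a prior count of 2.

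The members and lists were chosen with earlier results of these data known. All members are named; for each tested member the 2 closest genes, and for each other list up to 4 genes by smallest p, were eligible to be named. Alternatives were no block, RLE or no scaling, no or a stricter filter, leaving out each model, DESeq2 1.42.0, limma 3.58.1 voom with quality weights, counts without regard to strand, and models without the GFP term.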

Additional observations from a re-analysis of the deposited data

Results flagged for a closer look

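In 25 groups of 5 values checked for a sample far from the others, 2 stood apart, where chance gives about 1 in 20. The log2 difference of Sox2 was 0.94 in model A, against -0.29 to -0.04 in the other models. The level of Sox8 was 2.98 CPM in GFP+ cells of model B, against 0.278 to 0.384 CPM in GFP+ cells of the other models. Differences between models in the GFP effect could not be tested with 1 pair per model.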

How the results depend on the processing

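The count of genes that differed between GFP+ and GFP- cells was 0 in the fit reported above, by edgeR's quasi-likelihood test (1257 at an unadjusted p under 0.05). With no filter on low counts and with DESeq2, 0 of the Sox members were called, whereas Sox10, not a member here, was called in both. The count was 47 with no filter on low counts and 190 with DESeq2, and 0 under every other alternative run. With no replicate block it was 0 (190 at an unadjusted p under 0.05, against 1257 in the paired fit), and the unadjusted p was 0.0541 for Sox6, 0.482 for Sox11 and 0.338 for Sox13. The count of genes that differed between models was 7655 in that fit, 4038 without model C and up to 7545 without model A; the cause was not tested. Leaving out 1 model at a time gave Sox2 a log2 difference of -0.16 to 0.16, Sox9 -0.21 to 0.42 and Sox12 -0.13 to 0.082, each with a change of sign, and Sox12 was 0.0060 with library totals only. Signs of Sox4, Sox5, Sox6, Sox11 and Sox13 were the same in all alternatives in which they were tested. Sox6 ranged from 1.56 to 2.34, Sox11 from 0.71 (no replicate block) to 1.41 (DESeq2) and Sox13 from 0.63 to 0.98, at adjusted p of 0.127 to 1.00 for Sox6, 0.281 to 1.00 for Sox11 and 0.204 to 1.00 for Sox13 over all alternatives. Sox6 was not tested under the stricter filter. Depth limits Sox6 and Sox8, at 130 and 56 reads or fewer in every library. Sox8 could be fitted only with no filter on low counts.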
